A study of Mus musculus with 20 samples.

Results

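The genes described are Lifr, Il6st, Stat3, Socs3 and Osm, 5 of the 21361 genes in a table of read counts from 20 mouse libraries. They were chosen by name, with earlier results of these data known, as components of the signalling route of leukaemia inhibitory factor (LIF). All 5 passed the filter on low counts that left 16363 genes to test. LIF and oncostatin M, the product of Osm, are cytokines of the interleukin-6 family. LIF is bound by a pair of membrane proteins, the LIF receptor (Lifr) and gp130 (Il6st), and the paired receptor activates JAK kinases that phosphorylate STAT3 (Stat3), a transcription factor. STAT3 drives transcription of its own inhibitor Socs3 and of transcription factor genes that hold mouse embryonic stem cells in the naive state, which is why LIF is a standard component of their culture medium.

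Poly(A) RNA was sequenced from mouse embryonic stem cell lines (ESCs), from lines labelled PGC-ESCs, a name that joins primordial germ cells and ESCs, and from epiblast-like cells (EpiLCs), which model the epiblast after it leaves the naive state. The 4 ESC Host libraries are wildtype lines of strain label C57Bl6J, derived from host embryos. The ESC BaxKO group (n = 2), derived at an earlier time, lacks Bax, the ESC BaxHet line (n = 1) is heterozygous for Bax, and the PGC-ESC BaxKO group (n = 5) lacks Bax; these 8 lines have the strain label C57Bl6J/129SvEvRoEp and are called Bax lines here. The PGC-ESC DKO group (n = 3) has the genotype label Puma Noxa DKO, a double knockout of the cell death genes Bbc3 (Puma) and Pmaip1 (Noxa), and the strain label C57Bl6J. EpiLC Host (n = 2) was made from host lines 3 and 4, and EpiLC DKO (n = 3) from PGC-ESC DKO lines 1 to 3. ESC culture used gelatin and N2B27 medium with LIF, the GSK3 inhibitor CHIR99021 and the MEK inhibitor PD0325901; the sources used here do not give the medium in which EpiLCs were made or whether it held LIF. Each library is 1 line, so the groups are samples of lines.

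Library totals ran from 14255399 to 33376660 counts. Levels are given as CPM, a gene's counts after every library is scaled to the same total. Bax stood at 1.66 to 2.43 CPM in the 7 BaxKO libraries and at 283 to 533 CPM in ESC Host. Pmaip1 stood at 1.26 to 4.35 CPM in PGC-ESC DKO and at 20.2 to 52.7 CPM in ESC Host, whereas Bbc3 reads remained in the DKO lines at 27.5 to 49.2 CPM. The 8 Bax lines ranged from 4.34 to 43.4 CPM for Pmaip1, so the lowest of them reached the DKO level. In EpiLCs Pmaip1 stood at 3.86 to 5.69 CPM in DKO and at 314 and 333 CPM in Host. The pluripotency markers Pou5f1, Sox2, Nanog, Zfp42, Esrrb, Klf2 and Tbx3 were summed. Their sum was 4376 to 5415 CPM in the 15 ESC and PGC-ESC libraries and 981 to 1424 CPM in the 5 EpiLC libraries. Pou5f1 made up most of the EpiLC sum at 653 to 1085 CPM, and no other of these markers exceeded 186 CPM there. The formative markers Fgf5, Otx2, Pou3f1, Dnmt3b and Dnmt3a summed to 128 to 288 CPM against 1576 to 3191 CPM in EpiLCs. Otx2 by itself overlapped, at 0.379 to 8.96 CPM in ESCs and PGC-ESCs and 2.81 to 36.1 CPM in EpiLCs. Rn45s, the ribosomal RNA precursor, split the libraries into 9 with at most 5106 CPM and 11 with at least 17130 CPM. The lower set holds ESC Host 1 and 2 and 7 of the 8 Bax lines; the higher set holds ESC Host 3 and 4, ESC BaxKO 2, all PGC-ESC DKO and all EpiLC libraries. The table also has a row named EGFP, at 0 to 0.547 CPM in ESC Host, 1704 to 3507 CPM in the Bax lines and 8485 to 9722 CPM in PGC-ESC DKO.

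Upstream sequence was taken from RefSeq (GRCm38.p6) for 4 of the 5 genes; Osm is named only. The 250 bases before the RefSeq start of Socs3, a known STAT3 target, are shown because they hold the letters TTCNNNGAA to which STAT dimers bind, set in capitals. The windows of Stat3 and of Il6st, which encodes the shared receptor chain gp130, are shown beside it for comparison and hold no such match. All are written 5′ to 3′ on the gene's own strand.

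Socs3, chr11:117969367-117969616, minus strand: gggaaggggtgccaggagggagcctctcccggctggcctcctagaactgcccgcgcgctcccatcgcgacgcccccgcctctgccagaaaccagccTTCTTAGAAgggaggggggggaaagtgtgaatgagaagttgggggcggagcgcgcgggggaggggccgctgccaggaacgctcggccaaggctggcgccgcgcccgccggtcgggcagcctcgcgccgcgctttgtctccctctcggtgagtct

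Stat3, chr11:100939541-100939790, minus strand: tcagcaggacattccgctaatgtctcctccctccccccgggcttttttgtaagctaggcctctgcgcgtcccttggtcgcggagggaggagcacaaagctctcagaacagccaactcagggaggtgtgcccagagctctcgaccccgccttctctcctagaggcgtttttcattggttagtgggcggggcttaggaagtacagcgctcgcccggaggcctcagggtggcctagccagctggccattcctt

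Il6st, chr13:112463820-112464069, plus strand: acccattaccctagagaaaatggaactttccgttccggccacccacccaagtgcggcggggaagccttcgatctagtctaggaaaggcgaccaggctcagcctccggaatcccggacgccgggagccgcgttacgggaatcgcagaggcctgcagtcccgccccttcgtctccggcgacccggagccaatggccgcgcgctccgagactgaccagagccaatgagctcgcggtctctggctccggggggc

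The match in the Socs3 window reads TTCTTAGAA, and its first base lies at -154 from the RefSeq start. In the GENCODE annotation the gene span of Socs3 begins further out, so there this window lies inside the annotated gene and not upstream of it. The bases that follow the RefSeq start of Socs3 were not found in a GENCODE transcript. Both windows listed for Lifr also lie inside its annotated gene span, and they lack the motif as well. For Socs3 and Lifr the bases before the GENCODE start were not searched for either form of the motif. TTCNNNGAA reads the same on either strand and occurs in 2306 of 32851 upstream windows of this length (7.02%). The narrower form TTCCNGGAA, a subset of TTCNNNGAA, occurs in 300 windows (0.913%) and in none of the windows of these 4 genes. A match describes the letters in a window and does not show that a factor binds there. The windows differ in base composition, with 71.6% G or C in that of Socs3, 66% in that of Il6st and 60.8% in that of Stat3.

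In the annotation of build mm10, Lifr lies on chromosome 15 (7090614 to 7197489, plus strand) and Il6st on chromosome 13 (112464070 to 112510086, plus strand). Stat3 (100885098 to 100939540, minus strand), Socs3 (117966079 to 117970047, minus strand) and Osm (4236420 to 4241026, plus strand) are all on chromosome 11. Osm and Lif are neighbours, with 16530 bases between the end of one and the start of the other. The annotated span of Stat3 overlaps that of Stat5a on the opposite strand; the sources used here do not say whether reads were counted by strand, so reads of these genes in the overlap could not be assigned with certainty. Per kilobase of annotated exon, Socs3 had the highest level in ESC Host at 36.7 CPM per kb. Stat3 followed at 12.4, Osm at 9.06, Il6st at 7.77 and Lifr at 4.73 CPM per kb.

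The genes stood far lower in EpiLCs than in ESCs and PGC-ESCs, and no EpiLC library reached the lowest ESC or PGC-ESC library for any of them. How many of all tested genes separate in this way was not counted. By the tests below, 21.7% of them were called lower in the Host conversion and 22.5% in the DKO conversion. The gap was narrowest for Il6st, whose lowest ESC or PGC-ESC library was 2.00 times its highest EpiLC library. It was 2.90 times for Lifr, 3.78 times for Stat3, 4.62 times for Socs3 and 172 times for Osm. Fewer cells expressing a gene and less RNA per cell cannot be told apart in these bulk libraries.

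Lifr, the ligand-binding partner in the receptor, stood at 51.6, 68.9, 49.7 and 33.7 CPM in ESC Host lines 1 to 4. It stood at 8.25 and 6.67 CPM in EpiLC Host lines 3 and 4. In the double knockout lines 1 to 3 it went from 40.8, 39.4 and 48.6 CPM in PGC-ESCs to 5.75, 7.30 and 11.6 CPM in EpiLCs. Parent and EpiLC libraries did not overlap in either background, and the highest EpiLC value belonged to DKO line 3. By edgeR's quasi-likelihood test on all genes with Benjamini-Hochberg adjustment, used for every adjusted p here, Lifr fell by 2.90 ± 0.31 on the log2 scale (± standard error) in the Host lines (adjusted p = 8.25e-07). The same test gave a log2 fold change of -2.59 ± 0.26 in the DKO lines (adjusted p = 4.95e-07).

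Il6st encodes gp130, the signalling chain shared by receptors of the interleukin-6 family. It stood at 111, 104, 82.6 and 47.2 CPM in ESC Host lines 1 to 4 and at 22.7 and 23.0 CPM in EpiLC Host lines 3 and 4. In the DKO lines it went from 68.1, 45.9 and 70.0 CPM to 19.95, 18.2 and 15.4 CPM. Both EpiLC groups were narrow and lay below every parent library. The log2 fold changes were -2.03 ± 0.23 in Host (adjusted p = 1.62e-06) and -1.97 ± 0.20 in DKO (adjusted p = 5.36e-07), the smallest falls of the 5 genes. The unconverted ESC Host lines 1 and 2 had the highest levels and enter the Host value. Over the alternative settings, the Host value ranged from -2.20 to -1.69. Host line 4, the lowest of the ESC Host lines, kept 48.6% of its parent level in CPM, the largest share of the 5 lines. With library sizes rescaled as in the tests (TMM scaling), its log2 CPM went from 5.81 to 4.44, a larger fall than in CPM.

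Stat3, the transcription factor that carries the signal to the nucleus, stood at 122, 144, 135 and 71.3 CPM in ESC Host lines 1 to 4. Its EpiLC Host values were 15.6 and 14.7 CPM. The DKO lines went from 122, 78.4 and 127 CPM to 16.7, 18.9 and 17.98 CPM. The parents of lowest level, Host line 4 and DKO line 2, converged with the others in the EpiLC state. The log2 fold changes were -3.08 ± 0.25 in Host (adjusted p = 3.5e-08) and -2.80 ± 0.21 in DKO (adjusted p = 1.55e-08).

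Socs3, the feedback inhibitor, stood at 107, 126, 113 and 78.8 CPM in ESC Host lines 1 to 4 and at 14.8 and 15.3 CPM in EpiLC Host. In the DKO lines it went from 85.1, 92.2 and 102.7 CPM to 15.6, 10.48 and 11.9 CPM. All 5 EpiLC libraries lay far under their parents. Relative to the mean, the SD was 16.8% in EpiLCs and 18.9% over the 15 ESC and PGC-ESC libraries. Socs3 fell by 2.95 ± 0.22 on the log2 scale in Host (adjusted p = 1.72e-08) and by 3.08 ± 0.19 in DKO (adjusted p = 1.95e-09).

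Osm, a cytokine known mainly as a product of blood cells, went from 24.2, 22.6, 10.7 and 24.9 CPM in ESC Host to no counts in either EpiLC Host library. The DKO lines went from 18.4, 21.0 and 16.9 CPM to 0.0599, 0.0374 and 0.0622 CPM. Osm was thus close to absent in all EpiLC libraries. Summed over the group, EpiLC Host held 0 Osm counts among 50026088, against 1999 counts in all 4 ESC Host lines. Taking 3 counts for the whole EpiLC group as the floor, Osm was at least 328-fold lower than the pooled level of those 4 lines. Of the 1999 counts, 347 came from ESC Host 3 and 501 from ESC Host 4, the lines that were converted. No bound was computed for the converted lines alone. EpiLC DKO held 4 counts against 1162 in PGC-ESC DKO, a 355-fold lower level with a 95% counting interval of 138 to 1306, which covers counting error only. The fall passed the test in Host (adjusted p = 4.7e-09) and in DKO (adjusted p = 1.06e-09).

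Blood and macrophage markers were measured beside Osm. Ptprc, the pan-leukocyte marker, was at 0 to 0.140 CPM in the 15 ESC and PGC-ESC libraries, and Adgre1, a macrophage marker, was at most 0.0404 CPM. The 5 markers of that list summed to 8.04 to 27.7 CPM in those libraries and 6.26 to 20.2 CPM in EpiLCs, and Cd68, a lysosomal protein gene that other cells also express, made up most of it at 7.24 to 26.6 CPM and 4.07 to 15.4 CPM. Itgam, a myeloid marker, reached 1.88 CPM and Csf1r, a macrophage receptor gene, 0.568 CPM in ESCs and PGC-ESCs. In EpiLCs Ptprc and Itgam did not fall with Osm, at 0.128 to 1.18 CPM and 1.77 to 3.42 CPM. Adgre1 was at most 0.0374 CPM there and Csf1r at most 0.124 CPM. The part of such cells in the Osm level was not tested. Fibroblast and feeder markers, also 5, summed to 1.74 to 15.6 CPM in ESCs and PGC-ESCs and to 15.3 to 22.6 CPM in EpiLCs; their part in the results was likewise not tested.

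All 5 genes were lower in both conversions, against a background of 21.7% of all tested genes called lower in the Host conversion and 22.5% in the DKO conversion (44% and 47.6% in either direction). Their median log2 fold change was -2.95 in Host, against -0.03 over all tested genes, and -2.80 in DKO, against 0.01. The 5 genes were chosen by name with earlier results of these data known, so these are descriptions of the list. By line, the share of the parent level that remained in EpiLCs was taken in CPM, without the TMM scaling used in the tests. It ranged from 14.1% to 23.9% for Lifr, from 22.1% to 48.6% for Il6st, from 11.5% to 24.1% for Stat3 and from 11.4% to 19.4% for Socs3. For Osm it was 0.325%, 0.178% and 0.367% in DKO lines 1 to 3.

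**Figure D1:**
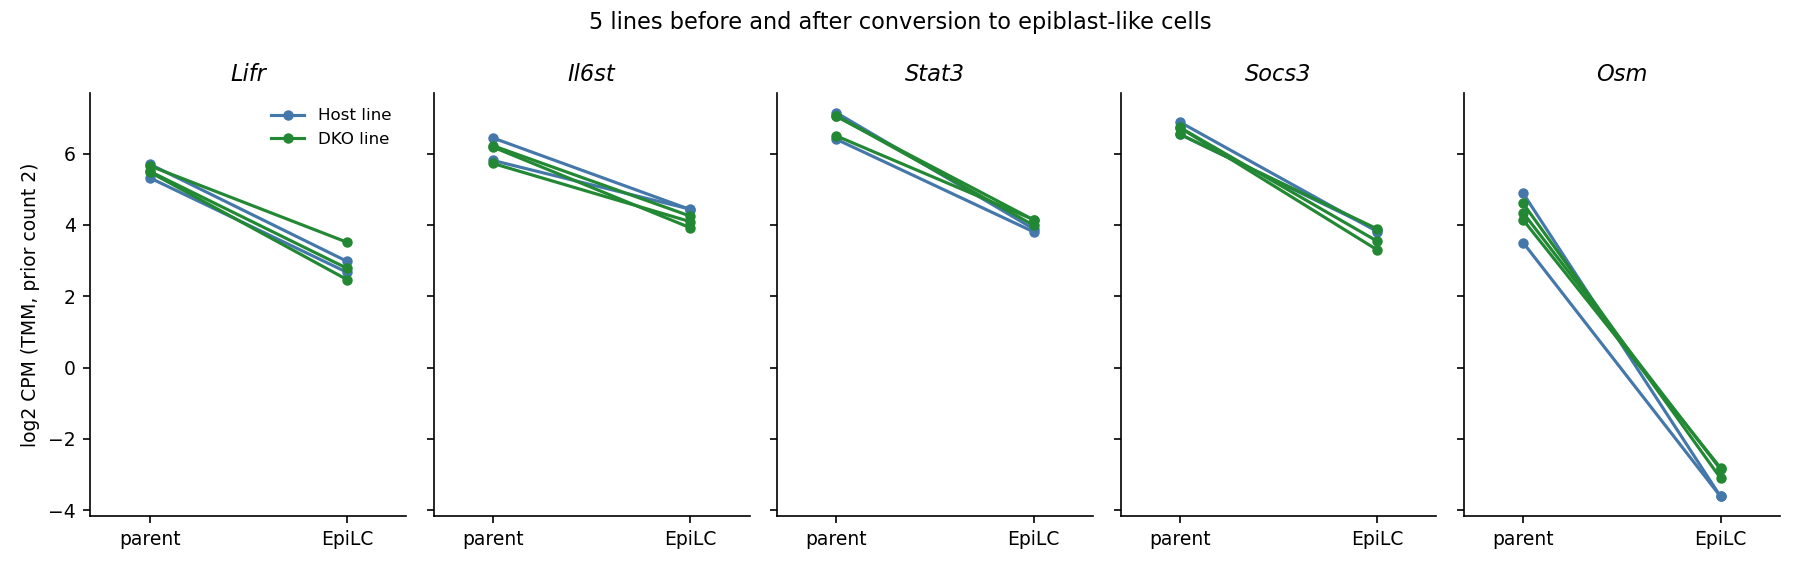
TMM-scaled log2 CPM (prior count 2) of the 5 genes in each converted line before and after conversion, with 1 line drawn per cell line. Each of the 5 lines falls in each panel, least for Il6st and furthest for Osm, where the EpiLC points rest on the prior count.

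The DKO lines and the Host lines were compared for how far each gene fell. None of the 5 genes was called for a difference between the conversions, a test that called 1 of all tested genes (0.00611%), with 458 genes at an unadjusted p under 0.05 and 6 called by DESeq2. The difference, DKO minus Host on the log2 scale, was 0.30 for Lifr (95% interval -0.47 to 1.08) and 0.06 for Il6st (-0.54 to 0.66). It was 0.28 for Stat3 (-0.33 to 0.89) and -0.13 for Socs3 (-0.69 to 0.42). Osm had 0 counts in one EpiLC group and 4 in the other, both at or about the floor, and no fold is given. These intervals leave room for differences of well over 1.5-fold in the fall of Lifr. Between the EpiLC groups themselves 0 of the 5 genes differed in the test, which called 7 genes (0.0428%), with 498 at an unadjusted p under 0.05 and 33 called by DESeq2. EpiLC DKO relative to EpiLC Host stood at 0.14 on the log2 scale for Lifr (-0.47 to 0.75), -0.34 for Il6st (-0.80 to 0.12), 0.25 for Stat3 (-0.23 to 0.72) and -0.24 for Socs3 (-0.67 to 0.19).

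The other genes of the route were read from 6 lists, and they did not all move as the 5 genes did. The lists also hold the 5 genes, so the counts and medians below include them. Osm is in the ligand list, Lifr and Il6st in the receptor list and Stat3 in the JAK and STAT list. Socs3 is in both the negative regulator list and the target list. Of 10 interleukin-6 family ligand genes, 8 were tested (Il6 and Il27 were too low); in Host 3 were higher and 1, Osm, lower, and in DKO 2 were higher and Osm again lower. Of all tested genes, 22.4% were called higher in Host and 25.1% in DKO. The ligand gene Clcf1 rose from 0.177 to 1.18 CPM (TMM-scaled group means, as beside every fold change) in Host (log2 fold change 2.77, adjusted p = 0.000142) and from 0.128 to 0.720 CPM in DKO (2.37, adjusted p = 0.0013). Il11 was called in Host (1.89, adjusted p = 0.042), with adjusted p = 0.0685 when the lines were paired, and had adjusted p = 0.0974 in DKO. Lif itself, named after its values were seen, was present in all libraries and did not pass the test, with log2 fold changes of -0.43 in Host (adjusted p = 0.113) and -0.39 in DKO (adjusted p = 0.114).

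The receptor list held members that moved in opposite directions. Of 7 receptor genes, 6 were tested (Osmr, the oncostatin M receptor chain, was too low); 2 were higher and 3 lower in each background. Cntfr, the binding receptor for the ligand CNTF, rose from 3.81 to 75.5 CPM in Host (4.31 ± 0.37, adjusted p = 8.48e-08) and from 2.73 to 63.2 CPM in DKO (4.53 ± 0.41, adjusted p = 1.38e-07). It thereby rose where its signalling partners Lifr and Il6st fell. Il11ra1 rose from 1.63 to 4.37 CPM in DKO (1.45, adjusted p = 0.00313) and was called in Host (1.09, adjusted p = 0.0187) but not with lines paired (0.99, adjusted p = 0.0861). Il6ra, the interleukin-6 receptor, fell from 9.74 to 2.699 CPM in DKO (-1.83, adjusted p = 0.00259). In ESC Host lines 1 to 4 Il6ra stood at 11.1, 10.6, 3.09 and 2.69 CPM, so the unconverted lines 1 and 2 were high and lines 3 and 4 were close to their EpiLC values of 2.64 and 2.49 CPM. The Host fall of Il6ra (-1.52, adjusted p = 0.0187) was -0.41 with lines paired (adjusted p = 0.42).

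Of 11 JAK and STAT genes, 1 was higher and 6 lower in each background. Jak3, a kinase known for signalling by lymphocyte cytokine receptors, fell from 97.5 to 2.91 CPM in Host (-5.07 ± 0.38, adjusted p = 1.46e-08) and from 110.1 to 2.95 CPM in DKO (-5.22 ± 0.32, adjusted p = 1.51e-09). Stat5a, which overlaps Stat3, fell by 2.29 (adjusted p = 4.22e-05) and 1.83 (adjusted p = 0.000105), and Tyk2 fell by 1.11 and 0.86 (adjusted p = 6.2e-05 and 0.000253). Jak1, the main kinase bound to gp130, and Stat5b were named after their values were seen. Jak1 was not called (0.18, adjusted p = 0.627 in Host; 0.20, adjusted p = 0.536 in DKO), and its sign changed when single libraries were left out. Stat5b was the member that rose (0.87, adjusted p = 0.0104 in Host; 1.09, adjusted p = 0.0019 in DKO), and its Host call was lost without EpiLC Host 3 (adjusted p = 0.131).

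Of 15 negative regulators of JAK-STAT signalling, 5 were lower and 1 higher in each background. Socs3 had the most negative values among them. Ptpn6, the phosphatase SHP-1, fell by 1.68 (adjusted p = 7.82e-06) and 1.52 (adjusted p = 6.44e-06). Pias2 fell by 1.10 and 1.02, and Pias4 by 0.65 and 0.68, with adjusted p between 2.51e-06 and 0.000244 over these 4 values. The member called higher was Socs2 in Host (0.48, adjusted p = 0.0366; 0.33 and adjusted p = 0.132 with lines paired) and Socs1 in DKO (0.84, adjusted p = 0.0154; 0.66 and adjusted p = 0.0577 in Host). The Socs2 call was also lost without EpiLC Host 3 or 4 or ESC Host 1 (adjusted p from 0.0631 to 0.249); Socs2 was named after its values were seen. The Socs1 call in DKO was lost without PGC-ESC DKO 3 (adjusted p = 0.0564), and Socs1 was called in Host by DESeq2 (adjusted p = 0.0168).

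Of 14 genes listed as STAT3 targets in ESCs, 7 were lower and 4 higher in each background. Tfcp2l1, a transcription factor through which LIF acts on naive self-renewal, fell from 1029 to 7.35 CPM in Host (-7.13 ± 0.28, adjusted p = 3.05e-11) and from 933 to 10.2 CPM in DKO (-6.53 ± 0.23, adjusted p = 3.89e-12). Klf4, another naive factor, fell by 7.33 (adjusted p = 2.37e-08) and 6.24 (adjusted p = 9.18e-09). Bcl3 fell by 5.30 and 5.23, and Klf5 by 3.59 and 3.53 (adjusted p from 3.92e-10 to 8.53e-09). The 4 that rose, named after their values were seen, were Myc, Pim1, Cebpd and Mcl1. Myc rose from 10.3 to 96.6 CPM in Host (3.23, adjusted p = 1.65e-06) and from 11.4 to 84.6 CPM in DKO (2.89, adjusted p = 8.59e-06). Pim1, a serine/threonine kinase gene, rose from 173 to 598 CPM (1.79, adjusted p = 5.65e-05) and from 164 to 425 CPM (1.37, adjusted p = 0.000615). Cebpd rose by 3.05 in both backgrounds (adjusted p = 1.37e-05 and 2.08e-05), and Mcl1 by 0.42 (adjusted p = 0.0114) and 0.56 (adjusted p = 0.00104), its Host call being lost without EpiLC Host 3 (adjusted p = 0.108).

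The list of other arms of the receptor, the MAP kinase and PI3 kinase routes, held 10 genes, of which 3 were higher and 1 lower in each background. Ptpn11, the phosphatase SHP-2 that links gp130 to the MAP kinases, rose by 0.80 (adjusted p = 0.00104) and 0.71 (adjusted p = 0.00189). Akt1 rose by 1.09 (adjusted p = 0.000473) and 0.77 (adjusted p = 0.00572). Mapk3 rose by 0.80 (adjusted p = 0.00604) and 0.81 (adjusted p = 0.00419), its Host call being lost without EpiLC Host 4 (adjusted p = 0.06). The adaptor Grb2 fell by 0.59 (adjusted p = 0.000707) and 0.69 (adjusted p = 8.58e-05). The medians of the ligand, receptor, JAK and STAT, negative regulator, target and other-arm lists in Host were 0.38, -0.85, -0.54, 0.06, -0.46 and 0.13, against -0.03 over all genes.

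**Figure D2:**
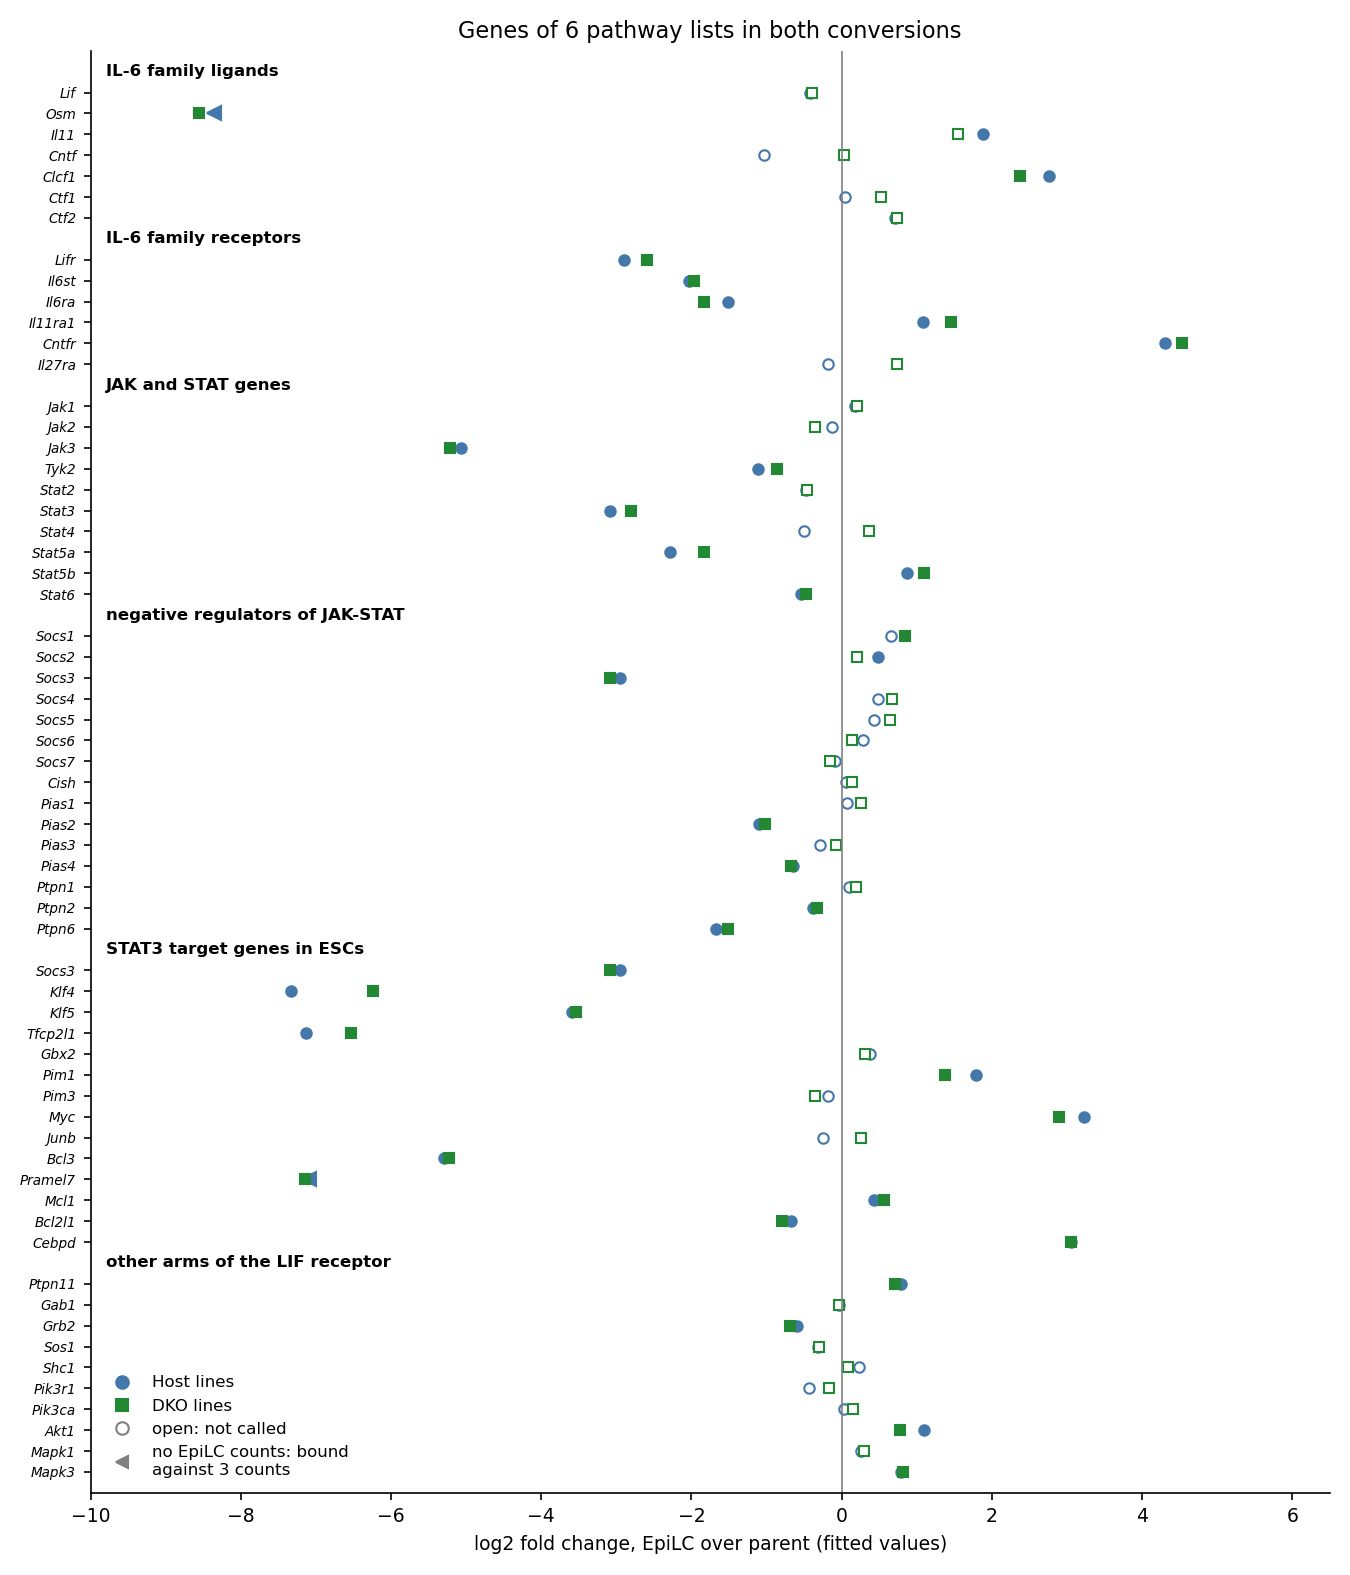
Log2 fold change of EpiLCs over their parent lines for the genes reported from 6 lists, with circles for Host lines and squares for DKO lines, filled where the adjusted p was under 0.05. Osm and Pramel7 had no EpiLC Host counts and are drawn there as bounds against 3 counts; Cntfr lies far to the right, and Osm, Klf4 and Tfcp2l1 far to the left.

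Among the 15 ESC and PGC-ESC libraries the 5 genes varied to different degrees. The highest library was 1.88 times the lowest for Socs3, 2.20 times for Stat3, 2.97 times for Lifr, 4.06 times for Osm and 4.45 times for Il6st in CPM. With TMM scaling the values were 1.95 times for Socs3, 1.85 times for Stat3, 2.49 times for Lifr, 3.78 times for Osm and 3.76 times for Il6st, so the order within the lowest and the highest pair depends on the scaling. ESC Host 4 was the lowest of the 15 for Lifr and Stat3. It also had the highest share of Rn45s (5.19% of its counts), which was not tested as a part of these values; TMM scaling, which the tests used, multiplied its library size by 0.844 and so raised its values.

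By mean CPM, Lifr was highest in ESC BaxKO (87.3 ± 18.1 CPM, mean ± SD, n = 2), followed by the ESC BaxHet line (74.4 CPM), PGC-ESC BaxKO (60.4 ± 12.3, n = 5), ESC Host (51.0 ± 14.4, n = 4) and PGC-ESC DKO (42.9 ± 4.94, n = 3). From ESC BaxHet down to PGC-ESC DKO each group overlapped the next. Stat3 ran from 148.6 ± 11.6 CPM in ESC BaxKO through 128 ± 22.1 in PGC-ESC BaxKO, 128 in ESC BaxHet and 118 ± 32.4 in ESC Host to 109 ± 26.6 in PGC-ESC DKO. Each of these groups overlapped its neighbour. Socs3 ran from 126 ± 13 CPM in ESC BaxKO through 106 ± 19.7 in ESC Host, 93.3 ± 8.84 in PGC-ESC DKO and 91.3 ± 17.9 in PGC-ESC BaxKO to 85.4 in ESC BaxHet, again with neighbours overlapping. Il6st and Osm were higher in the 3 groups of Bax lines than in ESC Host and PGC-ESC DKO, without overlap in CPM. With TMM scaling the separation held for Il6st and not for Osm. The share of all tested genes with such a separation was not counted. Il6st stood at 175.7 CPM in ESC BaxHet, 170.1 ± 21.1 in PGC-ESC BaxKO and 161 ± 7.48 in ESC BaxKO, and then at 86.2 ± 28.7 in ESC Host and 61.3 ± 13.4 in PGC-ESC DKO. Osm stood at 36.9 ± 9.39 CPM in ESC BaxKO, 35.5 ± 7.001 in PGC-ESC BaxKO and 34.6 in ESC BaxHet, and at 20.6 ± 6.65 in ESC Host and 18.8 ± 2.08 in PGC-ESC DKO.

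PGC-ESC and ESC lines could be compared within the Bax lines, where genotype and strain label are shared. In this comparison of PGC-ESC BaxKO lines with ESC BaxKO lines the test called 0 of the 5 genes and 6 in all (0.0367%), with 1637 at an unadjusted p under 0.05 and 72 called by DESeq2. The log2 fold change, PGC-ESC over ESC, was -0.55 for Lifr (95% interval -1.06 to -0.03, adjusted p = 0.485) and -0.48 for Socs3 (-0.85 to -0.11, adjusted p = 0.463). Stat3 stood at -0.23 (-0.65 to 0.18), Il6st at 0.06 (-0.36 to 0.48) and Osm at -0.07 (-0.66 to 0.52). Within the C57Bl6J label, PGC-ESC DKO against ESC Host, where origin and genotype change together, also called 0 of the 5 (19 genes, 0.116%; 1195 at an unadjusted p under 0.05; 92 by DESeq2). Il6st stood at -0.40 (-0.79 to -0.02, adjusted p = 0.668), Lifr at -0.16 (-0.65 to 0.32), Socs3 at -0.10 (-0.45 to 0.24), Osm at -0.06 (-0.61 to 0.49) and Stat3 at -0.03 (-0.42 to 0.35). These intervals include differences of about 1.5-fold for most of the genes, so the comparisons do not show the levels to be alike.

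The lines of PGC-ESC BaxKO differed among themselves along with Y-linked reads. Lines 1, 3 and 4 had no reads of the Y-linked genes Ddx3y, Eif2s3y, Kdm5d and Uty, and lines 2 and 5 had a mean of 53.5 and 53.0 CPM. Lifr stood at 44.5, 52.7 and 60.5 CPM in lines 1, 3 and 4 and at 74.8 and 69.6 CPM in lines 2 and 5. Stat3 stood at 106.8, 117 and 113 CPM against 148.5 and 155 CPM, and Socs3 at 71.8, 80.7 and 87.0 CPM against 98.9 and 118 CPM. These 3 of the 5 genes were lower without overlap in the lines lacking Y-linked reads, against 23.6% of all tested genes that were lower without overlap and 49.8% that were apart in either direction. The ranges of Il6st and Osm overlapped. Both ESC BaxKO lines had Y-linked reads (61.1 and 47.0 CPM), and with Y-linked expression as a covariate the log2 fold change of PGC-ESC BaxKO against ESC BaxKO was -0.38 for Lifr, -0.15 for Stat3 and -0.40 for Socs3.

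Il6st separated the Bax lines from the C57Bl6J lines. It stood at 155.8 and 166 CPM in ESC BaxKO and at 175.7 CPM in ESC BaxHet. The PGC-ESC BaxKO lines 1 to 5 stood at 165, 175, 152, 204 and 154 CPM. All 8 Bax lines exceeded all 7 lines of ESC Host and PGC-ESC DKO, of which the highest was ESC Host 1 at 111 CPM. Other genes that separate these lines without overlap were not counted, so no share of all tested genes stands beside this. PGC-ESC BaxKO exceeded PGC-ESC DKO by 1.32 ± 0.18 on the log2 scale (166 against 66.7 CPM, adjusted p = 0.000209) and ESC Host by 0.91 ± 0.16 (166 against 88.2 CPM, adjusted p = 0.00142). ESC BaxKO exceeded ESC Host by 0.85 ± 0.20 (159.5 against 88.2 CPM, adjusted p = 0.0202), a call that was lost without ESC BaxKO 1 (adjusted p = 0.0964) or ESC BaxKO 2 (adjusted p = 0.179). Bax genotype, strain label and time of derivation cannot be told apart between ESC BaxKO and ESC Host, and origin differs as well between PGC-ESC BaxKO and ESC Host. Between PGC-ESC BaxKO and PGC-ESC DKO, the Bax and Puma Noxa genotypes and the strain label cannot be told apart.

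The Rn45s sets also follow this division in part. Within the lower set, Il6st stood at 152 to 204 CPM in 7 Bax lines against 104 to 111 CPM in ESC Host 1 and 2. Within the higher set it stood at 166 CPM in ESC BaxKO 2 against 45.9 to 82.6 CPM in 5 C57Bl6J lines. The comparison within the higher set rests on that 1 Bax line. All PGC-ESC BaxKO libraries are in the lower set and all PGC-ESC DKO libraries in the higher set. Set and group therefore cannot be told apart between PGC-ESC BaxKO and PGC-ESC DKO. With a term for the Rn45s set in the fit, a setting chosen after seeing the data, the log2 fold change of Il6st was 0.77 against ESC Host (adjusted p = 0.0133) and 0.98 against PGC-ESC DKO (adjusted p = 0.0574, no longer called).

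Osm showed a smaller difference of the same direction. It stood at 43.5 and 30.3 CPM in ESC BaxKO, at 34.6 CPM in ESC BaxHet and at 27.5, 40.5, 28.4, 42.0 and 39.3 CPM in PGC-ESC BaxKO lines 1 to 5. No C57Bl6J line exceeded 24.9 CPM, so these ranges did not overlap in CPM. On the TMM-scaled log2 CPM used for testing they did, with ESC Host 4 at 4.89 above PGC-ESC BaxKO 1 at 4.73 and line 3 at 4.78. PGC-ESC BaxKO exceeded ESC Host by 0.69 ± 0.23 (34.8 against 21.6 CPM, adjusted p = 0.047) and PGC-ESC DKO by 0.75 ± 0.25 (34.8 against 20.7 CPM, adjusted p = 0.0405), while ESC BaxKO against ESC Host stood at 0.76 and was not called (adjusted p = 0.14). The call against ESC Host was lost without ESC Host 1, 2 or 3 or without PGC-ESC BaxKO 2, 4 or 5 (adjusted p from 0.0524 to 0.105). The call against PGC-ESC DKO was lost without any 1 of its lines or without PGC-ESC BaxKO 2, 4 or 5 (adjusted p from 0.0616 to 0.131). With a term for the Rn45s set the log2 fold change of Osm was 0.55 against ESC Host (adjusted p = 0.248) and 0.47 against PGC-ESC DKO (adjusted p = 0.626), neither of them called.

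Counted over the 5 genes, 1 was called higher in ESC BaxKO against ESC Host (2.76% of all tested genes were called higher and 5.02% in either direction), 2 in PGC-ESC BaxKO against ESC Host (7.94% and 17.3%) and 2 in PGC-ESC BaxKO against PGC-ESC DKO (12.2% and 23.6%). The first pair of comparisons share the ESC Host libraries, and the second pair share PGC-ESC BaxKO. Lifr stood at 0.72 in ESC BaxKO against ESC Host (adjusted p = 0.111), at 0.18 in PGC-ESC BaxKO against ESC Host (adjusted p = 0.569) and at 0.34 against PGC-ESC DKO (adjusted p = 0.276). Stat3 stood at 0.28, 0.05 and 0.08 and Socs3 at 0.18, -0.29 and -0.19 in the same order, with no call. Socs3 was called lower in PGC-ESC BaxKO than in ESC Host without PGC-ESC BaxKO 5 (-0.41, adjusted p = 0.0404).

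Of the receptor list, Il6ra and Cntfr also differed in these comparisons and were named after their values were seen. Il6ra stood at 16.9 to 28.5 CPM in the 8 Bax lines and at 2.69 to 14.7 CPM in the 7 C57Bl6J lines. Its log2 fold change was 1.66 in ESC BaxKO against ESC Host (adjusted p = 0.0332) and 1.698 in PGC-ESC BaxKO against ESC Host (adjusted p = 0.00464). Against PGC-ESC DKO it was 1.21 (adjusted p = 0.034), and 0.16 with a term for the Rn45s set (adjusted p = 0.936). Its call in ESC BaxKO was lost without ESC BaxKO 1 or 2 or ESC Host 3 or 4 (adjusted p from 0.0644 to 0.229), and that against PGC-ESC DKO without PGC-ESC DKO 1 or 2 or without PGC-ESC BaxKO lines 1, 3 or 4 (adjusted p from 0.053 to 0.165). Cntfr moved the other way, at 0.217 to 0.982 CPM in the Bax lines and 1.54 to 4.95 CPM in the C57Bl6J lines. For neither gene was the share of all tested genes with such a separation counted. The log2 fold change of Cntfr in PGC-ESC BaxKO was -2.702 against ESC Host (adjusted p = 0.000126) and -2.22 against PGC-ESC DKO (adjusted p = 0.00129, and 0.268 with a term for the Rn45s set). ESC BaxKO stood at -2.74 against ESC Host (adjusted p = 0.00479), which was lost without ESC BaxKO 1 (adjusted p = 0.0933).

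Likeness between genes was measured as Pearson's r of log2 CPM over the 20 libraries, which fall into an EpiLC set and an ESC and PGC-ESC set, so a high r mostly repeats the gap between them. Closest to Lifr were Slc17a9 (0.985), Grn (0.984) and D230025D16Rik (0.984). Closest to Il6st were Ly75 (0.991), Slc6a6 (0.986) and Lamp2 (0.986). Closest to Stat3 were Fbrsl1 (0.993), Jak3 (0.991) and Mitf (0.99), and closest to Socs3 were Irf9 (0.99), Relb (0.984) and Irak3 (0.984). Osm was closest to Trpm1 (0.997), Notum (0.993) and Zfp59 (0.993). Among the 5 genes the lowest r was 0.876, between Il6st and Socs3, and the highest 0.98, between Lifr and Stat3. Over the 15 ESC and PGC-ESC libraries alone, r among the 5 genes ran from -0.205, between Il6st and Socs3, to 0.737, between Lifr and Stat3; Osm stood at -0.182 with Socs3 and -0.0102 with Stat3. The closest genes over those libraries were Ip6k1 for Lifr (0.952), Mib1 for Il6st (0.984), Polrmt for Stat3 (0.959), Sting1 for Socs3 (0.956) and Tsix for Osm (0.939).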

How the data were processed

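Poly(A) RNA from 20 libraries in 7 groups was measured. The authors deposited 1 table of raw read counts per gene, made with STAR 2.7.7a on mouse build mm10, per the submitters' processing notes; the counting tool, strand setting and annotation were not given in the sources used here. No column belonged to another sample. Positions and exon lengths came from GENCODE M21.

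Counts were fitted with edgeR 4.0.16 in R 4.3.3 (TMM scaling, filterByExpr, 1 coefficient for each of 7 groups, quasi-likelihood F test, two-sided, Benjamini-Hochberg over 16363 genes, called at an adjusted p under 0.05). Alternatives were RLE scaling, no filter or a stricter filter on low counts, DESeq2 1.42.0, only the groups compared, leaving out each library, a Y-linked covariate, a replicate block and, added after seeing the data, a term for Rn45s set. The test was run on simulated data first.

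The 5 genes and the lists were chosen with earlier results of these data known. Besides the 5 genes, each list contributed its 4 most significant called genes at most, and each of the 5 genes its 3 most correlated genes. EpiLCs and their parents are the same lines by title, and their deviations from group means correlated at 0.185 in both Host lines and 0.112, 0.116 and 0.0931 in the DKO lines. Replicates of a group differed by a chi-square per gene of 7.10 to 240.04 over 24 pairs, more than counting error. Lines are the replicates, and p-values measure the spread between these libraries. Some list members are counted in their lists but not reported here by name.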

Additional observations from a re-analysis of the deposited data

Results flagged for a closer look

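Osm stood at 10.7 CPM in ESC Host 3, far from the other ESC Host libraries, which lay between 22.6 and 24.9 CPM. The gap to its nearest neighbour was 0.835 of the group's range, against a critical value of 0.829 for 4 libraries. Of 10 groups of values examined this was the only one past its critical value. Chance gives about 1 in 20 for each group, so the rate over all 10 groups is higher. Without ESC Host 3, the log2 fold change of Osm in PGC-ESC BaxKO against ESC Host was 0.48 (edgeR's quasi-likelihood test, adjusted p = 0.105).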

How the results depend on the processing

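All 5 genes were called lower in both conversions, and none in the difference between conversions, between the EpiLC groups or in either origin comparison, under every alternative run. Of the calls between Bax lines and C57Bl6J lines, 0 of 5 genes remained for ESC BaxKO against ESC Host with only the groups compared or a replicate block (0 to 1 leaving out 1 library). For PGC-ESC BaxKO against ESC Host 1 remained with only the groups compared, the Y-linked covariate, the Rn45s term or the replicate block (1 to 2 leaving out 1 library). For PGC-ESC BaxKO against PGC-ESC DKO 0 remained with the Rn45s term and 1 with the block (1 to 2). The replicate numbers pair the lines in the conversions but are only numbers elsewhere; with lines paired, Il11, Il6ra, Il11ra1 and Socs2 lost their Host calls, and no other gene run under the alternatives lost a conversion call. EpiLC DKO and EpiLC Host share only number 3, so no block could be fitted there.

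Signs of uncalled values turned. Il6st in the difference between conversions went from 0.06 to -0.13 with the Rn45s term and -0.27 with the replicate block. In PGC-ESC BaxKO against ESC BaxKO, Il6st went to -0.016 with the Y-linked covariate and -0.12 with the Rn45s term, and Osm to 0.065 with the covariate. In PGC-ESC DKO against ESC Host, Stat3 went to 0.0028 and Osm to 0.082 with the Rn45s term, and Osm to 0.21 with the block. In PGC-ESC BaxKO against ESC Host, Stat3 went to -0.0093 with the covariate and -0.039 with the block. Leaving out 1 library gave ranges across 0 for Jak1 (-0.046 to 0.37 in Host, -0.027 to 0.35 in DKO), for Lifr and Il6st in the difference between conversions (-0.040 to 0.52, -0.081 to 0.22) and Lifr between EpiLC groups (-0.20 to 0.35). The same held for Il6st and Osm in the Bax origin comparison (-0.013 to 0.11, -0.30 to 0.21), Stat3 and Osm in PGC-ESC DKO against ESC Host (-0.17 to 0.13, -0.28 to 0.12), and Stat3 in PGC-ESC BaxKO against ESC Host (-0.094 to 0.13) and PGC-ESC DKO (-0.082 to 0.17).

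Counts over all genes moved more. The difference between conversions (1 gene) gave 6 with DESeq2, 0 with only the groups compared or the block, and 0 to 3 leaving out 1 library. EpiLC DKO against EpiLC Host (7) gave 33 with DESeq2, 12 with the covariate and 5 to 11. PGC-ESC BaxKO against ESC BaxKO (6) gave 72 with DESeq2, 10 with no filter, 2 with the Rn45s term, 0 with RLE scaling, the stricter filter, only the groups compared, the covariate or the block, and 0 to 12. PGC-ESC DKO against ESC Host (19) gave 92 with DESeq2, 9 with only the groups compared, 6 with the block and 14 to 44. ESC BaxKO against ESC Host (821) gave 1423 with DESeq2, 136 with only the groups compared, 314 with the covariate, 180 with the block and 182 to 1015. PGC-ESC BaxKO against ESC Host (2834) gave 1024 with only the groups compared, 1108 with the Rn45s term, 1337 with the block and 1768 to 3455. PGC-ESC BaxKO against PGC-ESC DKO (3858) gave 204 with the Rn45s term, 418 with the block and 1552 to 4198. Leaving out 1 library gave 4901 to 7189 in the Host conversion and 6346 to 7185 in the DKO conversion. The cause of these moves was not tested. Depth limits Osm in EpiLCs, where 0 to 4 counts per group remained.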
